A study of Mus musculus with 8 samples.

Results

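Genes that encode the proteins of replication origins and replication forks were followed in mouse DN3 thymocytes, early T cell precursors at the stage at which the T cell receptor beta gene is rearranged. The 50 genes were taken by symbol from the 18193 genes measured and cover the origin recognition complex, the licensing factors and their kinase, the MCM helicase, the CMG assembly factors, the replicative polymerases and primase, the clamp and its loader, RPA, Okazaki fragment maturation, E2F and cyclin E, chromatin factors behind the fork, and fork protection. Each gene was read on 1 probe set, the one with the highest mean over the 8 arrays, and no filter on dim genes was applied, so all 50 genes were tested. Lineage-depleted thymocytes were grown on OP9 DL1 stromal cells, which present the Notch ligand DL1, and DN3 cells (lineage-negative, CD44-, CD25+) were sorted from the culture. Cells carried the Ikaros alleles IkL/L, which the series calls Ikaros deficient, or were WT, and they received the gamma secretase inhibitor MRK-003 (GSI) at a labelled dose of 5 mM, or the vehicle DMSO, for 16 h. The unit of that dose could not be checked, and it may be a misprint for micromolar. Gamma secretase makes the cut that frees the intracellular part of Notch, so GSI blocks Notch signalling. The 4 groups were IkL/L GSI, IkL/L DMSO, WT GSI and WT DMSO, with 2 arrays each. The origin of the 2 samples of a group, from separate animals or cultures or not, is not labelled, and the p-values therefore cover the spread between these samples alone, which may be technical.

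Replication is licensed in G1, when the origin recognition complex, Cdc6 and Cdt1 load the MCM2-7 helicase onto DNA in an inactive form. At the start of S phase the kinase Cdc7 with its partner Dbf4, together with cyclin-dependent kinases, lets Cdc45 and the GINS complex join MCM2-7 to form the active CMG helicase, and polymerases, clamp and clamp loader follow. Many of these genes are textbook targets of E2F transcription factors, and DN3 thymocytes that pass beta-selection divide rapidly.

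All values are log2 array signals, and differences are GSI minus DMSO on the log2 scale unless stated. The levels of different probe sets are not compared, since probes differ in how strongly they bind. The mean level of the 50 genes was 9.56 and 9.28 with GSI, against 10.81 and 10.73 with DMSO, in IkL/L cells, and it stood at 9.39 and 9.46 with GSI, against 10.51 and 10.57 with DMSO, in WT cells. The 4 GSI arrays were all lower than the 4 DMSO arrays. In sorted cells measured in bulk, fewer cycling cells and less RNA per cell cannot be told apart.

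Ikzf1, which encodes Ikaros, was at 11.75 and 11.52 on the IkL/L GSI arrays, against 12.18 and 11.95 on the WT GSI arrays, and at 11.14 and 11.19 on the IkL/L DMSO arrays, against 11.95 and 12.17 on the WT DMSO arrays. Its IkL/L minus WT difference had a limma adjusted p of 0.0222 under DMSO and of 0.298 under GSI, and where its probe set lies relative to the changed part of the allele is not given in the sources used here. The 16 measured DN3 markers averaged 10.61 and 10.40 with GSI, against 11.08 and 11.16 with DMSO, in IkL/L cells. In WT cells they averaged 10.41 and 10.49 with GSI, against 11.11 and 11.11 with DMSO. With GSI 5 of them were lower (Dtx1, Il2ra, Ptcra, Cd2 and Zap70) and 0 higher in the average of both genotypes (limma, adjusted p below 0.05). In that average 12.5% of all genes were lower and 10.8% higher, and these shares apply to each marker list here. The median change of the 16 DN3 markers was -0.01, with 8 negative and 8 positive, and Dtx1 changed furthest, at -4.38. In IkL/L cells alone 5 DN3 markers were lower and 2 higher, where 9.09% and 7.7% of all genes were. Of 9 myeloid and dendritic markers, 7 were higher with GSI, and the mean of the 9 was 7.47 and 7.38 with GSI, against 5.58 and 5.66 with DMSO, in IkL/L cells, and it stood at 5.91 and 5.75 with GSI, against 5.43 and 5.03 with DMSO, in WT cells. None of 16 stromal markers passed, while their mean differed between arrays (7.52 and 6.96 for IkL/L GSI, 7.37 and 6.40 for IkL/L DMSO, 7.82 and 6.002 for WT GSI, 7.06 and 6.19 for WT DMSO). Of 4 genes that the sort should exclude, 1 was higher, Cd4 at 0.77 ± 0.18. The mean of the 4 was 7.73 and 6.59 with GSI, against 6.22 and 6.27 with DMSO, in IkL/L cells. In WT cells their mean was 6.54 and 6.04 with GSI, against 6.32 and 6.05 with DMSO. The IkL/L GSI array numbered 1 thus stood above all others. Also higher were 1 of 4 B cell markers (Cd79b) and 1 of 3 gamma-delta and NK markers (Nkg7). The 3' minus 5' difference of the GAPDH control probes, a measure of RNA integrity and labelling, was 3.09 and 3.03 with GSI, against 1.87 and 2.47 with DMSO, in IkL/L cells, and it stood at 2.20 and 3.08 with GSI, against 1.71 and 2.12 with DMSO, in WT cells. With that difference as a covariate the median change of the 50 genes was -1.26, and with the stromal mean as a covariate it was -1.24. In each genotype both GSI arrays exceeded both DMSO arrays in the GAPDH difference. That covariate thus runs with the treatment, and the fit cannot tell RNA integrity and GSI apart. The part of the myeloid markers, and of the genes that the sort should exclude, in the results was not tested.

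Replication genes were lower after GSI almost as a whole. In the average of both genotypes 48 of the 50 fell (limma, Benjamini-Hochberg adjusted p below 0.05 over 18193 genes), where 12.5% of all genes fell, and 1 rose, where 10.8% of all genes rose. All 50 lie above the median gene level. Fitted over the genes above that level alone, 49 fell, where 24.3% of those genes did, and 1 rose, where 20.4% did. The median change of the 50 was -1.25, and that of all genes tested was -0.00. A fall of at least 2-fold was seen for 35 genes, as for 4.46% of all genes. For 48 genes both GSI arrays lay below both DMSO arrays in each genotype, as held for 15.6% of all genes, and for 0 they lay above in each genotype, as held for 13.7%. The exceptions were Rfc2 and Prim2. Leaving out 1 array ended 4 of the calls in at least 1 case each. The call of Cdc7 ended without the IkL/L GSI array numbered 2 and without the IkL/L DMSO array numbered 2. That of Gins4 ended without either IkL/L GSI array, without the IkL/L DMSO array numbered 1 and without the WT DMSO array numbered 1. That of Ccne2 ended without the IkL/L GSI array numbered 2, without either IkL/L DMSO array and without the WT DMSO array numbered 2. The call of Prim2 ended without any 1 of the arrays other than the WT GSI array numbered 2. With the GAPDH difference as a covariate Pola1, Gins4 and Prim2 did not pass in the average.

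**Figure D1:**
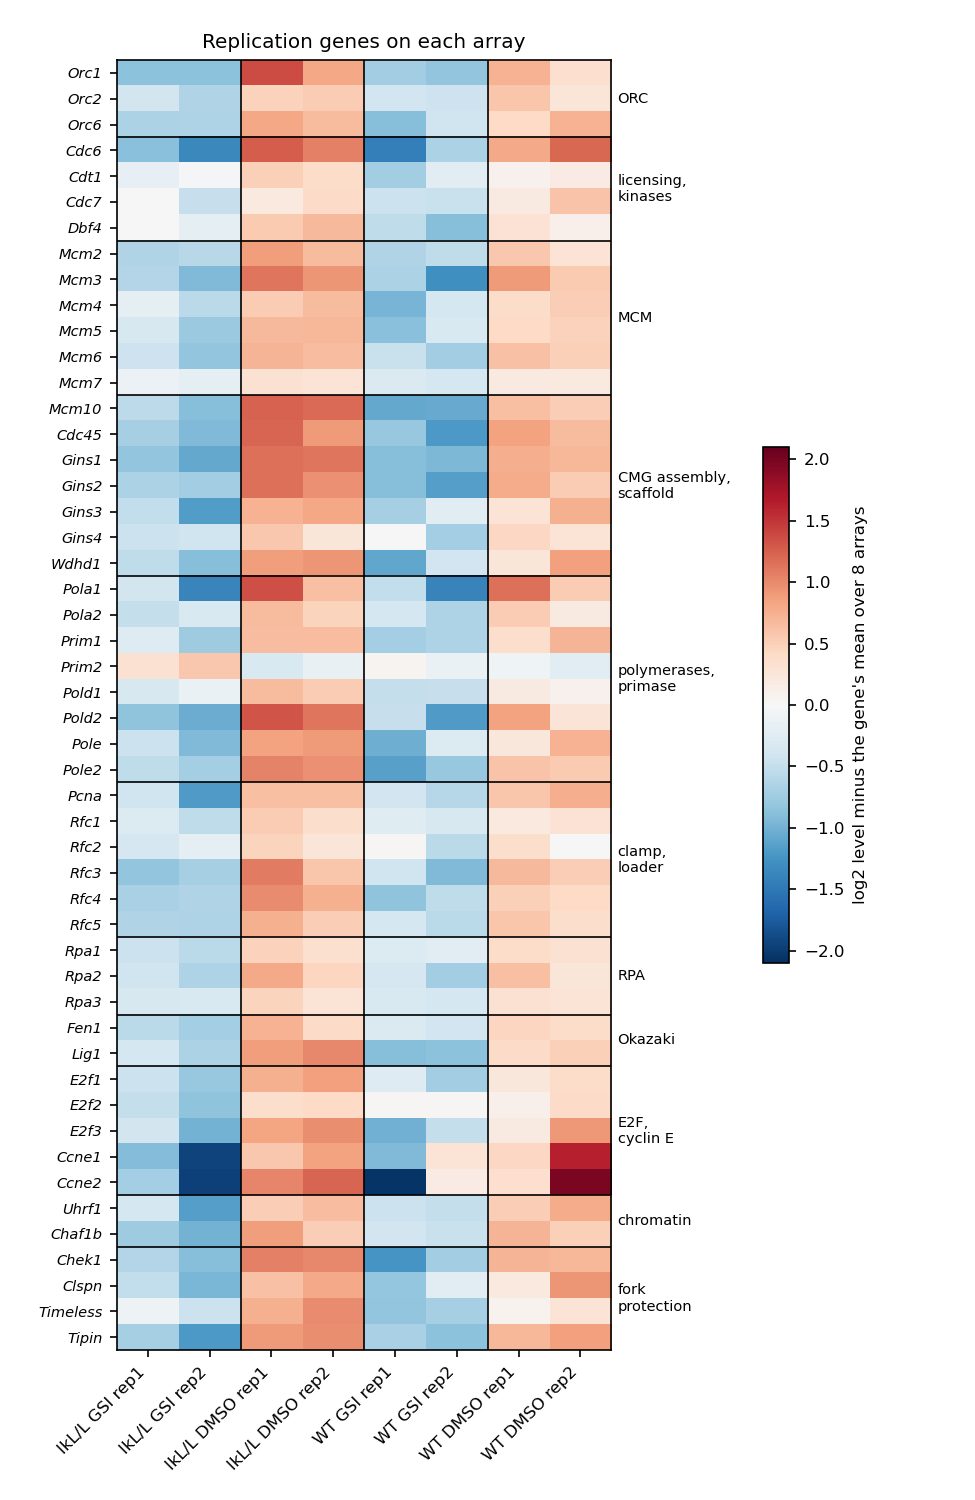
Level of each of the 50 replication genes on each of the 8 arrays (columns, 2 per group), as log2 level minus the gene's own mean over the 8 arrays; blue is lower, red is higher, and rows follow the genes' roles. The 4 GSI columns are blue and the 4 DMSO columns red for nearly all rows, with Prim2 the opposite in the IkL/L columns and Ccne1 and Ccne2 far apart between replicates.

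Promoters of the 50 genes were searched for the E2F motif, written TTTGGCGC, TTTCGCGC, TTTCCCGC and TTTGCCGC, on both strands, where the reverse complements are GCGCCAAA, GCGCGAAA, GCGGGAAA and GCGGCAAA. The 4 spellings share most of their letters, and a match describes the sequence and is not a measured binding site. RefSeq promoters (GRCm38.p6, 300 bases around each transcription start, most of them before it) were found for 41 of the 50 genes, with 51 promoters. The motif was in 17 of the 51 (33.3%), compared with 744 of all 32851 promoters of that length (2.26%), and the median GC content was 60.0% against 52.7% for all promoters. Shown are 6 promoters with the motif, of genes with the furthest (Orc1, Cdc6, Mcm3, Pola1 and Rfc3) or the nearest (Mcm7) change in their role group. The display thus leans to large changes by choice. Cdt1, E2f2 and Uhrf1, nearest in their groups, and Lig1, furthest in its group, also hold the motif and are not shown. The promoters shown run 5' to 3' with the motif in capitals. Their positions are Orc1 (chr4:108579204-108579503, plus strand), Cdc6 (chr11:98907901-98908200, plus strand), Mcm3 (chr1:20820263-20820562, minus strand), Mcm7 (chr5:138171834-138172133, minus strand), Pola1 (chrX:93632106-93632405, minus strand) and Rfc3 (chr5:151651159-151651458, minus strand).
Orc1: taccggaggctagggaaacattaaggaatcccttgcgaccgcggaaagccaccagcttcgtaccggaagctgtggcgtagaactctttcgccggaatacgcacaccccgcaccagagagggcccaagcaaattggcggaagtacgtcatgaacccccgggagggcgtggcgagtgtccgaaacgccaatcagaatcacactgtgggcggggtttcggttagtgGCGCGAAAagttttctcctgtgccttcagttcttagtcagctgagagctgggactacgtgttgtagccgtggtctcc
Cdc6: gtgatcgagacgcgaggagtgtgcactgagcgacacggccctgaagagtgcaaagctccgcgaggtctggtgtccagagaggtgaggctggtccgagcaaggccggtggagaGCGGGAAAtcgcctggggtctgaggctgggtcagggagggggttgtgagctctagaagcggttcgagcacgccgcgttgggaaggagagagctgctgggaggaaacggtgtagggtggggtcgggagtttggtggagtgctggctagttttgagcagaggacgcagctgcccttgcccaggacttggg
Mcm3: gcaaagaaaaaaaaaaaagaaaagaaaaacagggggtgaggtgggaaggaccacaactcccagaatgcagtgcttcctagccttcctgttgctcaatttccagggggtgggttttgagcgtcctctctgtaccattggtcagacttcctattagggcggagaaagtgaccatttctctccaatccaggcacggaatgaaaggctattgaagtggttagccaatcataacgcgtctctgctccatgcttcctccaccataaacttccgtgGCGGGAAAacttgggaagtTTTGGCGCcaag
Mcm7: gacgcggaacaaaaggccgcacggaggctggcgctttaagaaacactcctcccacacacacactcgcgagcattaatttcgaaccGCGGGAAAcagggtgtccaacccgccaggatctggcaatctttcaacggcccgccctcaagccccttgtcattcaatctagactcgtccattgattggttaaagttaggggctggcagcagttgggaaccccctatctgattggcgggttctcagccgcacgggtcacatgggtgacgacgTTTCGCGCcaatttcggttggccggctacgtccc
Pola1: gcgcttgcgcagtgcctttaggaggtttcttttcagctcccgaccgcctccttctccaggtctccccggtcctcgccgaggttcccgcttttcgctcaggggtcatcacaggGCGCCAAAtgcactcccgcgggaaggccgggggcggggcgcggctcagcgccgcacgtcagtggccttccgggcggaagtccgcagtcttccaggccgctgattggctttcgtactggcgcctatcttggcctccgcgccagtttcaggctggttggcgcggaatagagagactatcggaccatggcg
Rfc3: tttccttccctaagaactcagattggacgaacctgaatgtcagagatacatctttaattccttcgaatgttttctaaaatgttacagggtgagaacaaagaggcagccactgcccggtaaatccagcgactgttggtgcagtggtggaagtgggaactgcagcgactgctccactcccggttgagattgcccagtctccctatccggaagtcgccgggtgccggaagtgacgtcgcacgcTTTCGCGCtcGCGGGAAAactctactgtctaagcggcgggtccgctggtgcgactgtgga
Mcm3, Mcm7 and Rfc3 each hold 2 motifs in these windows. Mcm7 also has a promoter at another start in the table with no motif. The 17 genes with a motif changed by a median of -1.30 with GSI, the 24 with a promoter in the table but no motif by -1.16, and the 9 with no promoter in the table by -1.35. The changes ran from -2.16 to -0.50 among the genes with a motif and from -1.81 to -0.68 among those with a promoter but no motif, and the ranges overlap.

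Origin recognition was lower at all 3 of its subunits among the 50 genes. Orc1, the subunit whose level changes with the cell cycle in mammals, stood at 6.32 and 6.31 with GSI, against 8.55 and 8.00 with DMSO, in IkL/L cells, and at 6.44 and 6.36 with GSI, against 7.92 and 7.54 with DMSO, in WT cells. It fell by 1.64 on the log2 scale (SE 0.16; limma, adjusted p = 0.000469), which is 3.12-fold, and neither genotype's GSI and DMSO arrays overlapped. Orc2, a core subunit, had the smallest change of the 3 and stood at 8.50 and 8.25 with GSI, against 9.36 and 9.41 with DMSO, in IkL/L cells, and at 8.48 and 8.44 with GSI, against 9.46 and 9.14 with DMSO, in WT cells. Its change was -0.92 ± 0.13 (SE; adjusted p = 0.00203), again without overlap. Orc6, the smallest subunit, changed by -1.31 ± 0.15 (SE; adjusted p = 0.000785).

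Among the licensing factors and the kinase that fires origins, Cdc6 moved furthest. Cdc6, the ATPase that joins the origin recognition complex to load MCM2-7, was at 8.98 and 8.50 with GSI, against 11.12 and 10.91 with DMSO, in IkL/L cells, and at 8.41 and 9.18 with GSI, against 10.64 and 11.05 with DMSO, in WT cells. Its change of -2.16 ± 0.21 (SE; adjusted p = 0.000412) was a 4.48-fold fall, and the replicates of each WT group lay further apart than those of IkL/L DMSO. Cdt1, the partner of Cdc6 in MCM loading, was at 11.98 and 12.12 with GSI, against 12.64 and 12.53 with DMSO, in IkL/L cells, and at 11.41 and 11.92 with GSI, against 12.24 and 12.32 with DMSO, in WT cells. It fell by less, at -0.57 ± 0.12 (SE; adjusted p = 0.00907), and did not pass in either genotype alone. Cdc7, the origin-firing kinase, fell at -0.70 ± 0.15 (SE; adjusted p = 0.0127), and its activating subunit Dbf4 at -0.82 ± 0.13 (SE; adjusted p = 0.00272).

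All 6 subunits of the MCM2-7 helicase fell, with a median of -1.17. Mcm3 was at 10.25 and 9.94 with GSI, against 11.99 and 11.79 with DMSO, in IkL/L cells, and at 10.20 and 9.57 with GSI, against 11.76 and 11.41 with DMSO, in WT cells. The change of Mcm3 was -1.75 ± 0.17 (SE; adjusted p = 0.000412), the furthest of the 6 on the probe sets used. On other probe sets Mcm3 ran from -0.45 to -2.21, and Mcm5 reached -2.28. Mcm7 was at 12.96 and 12.90 with GSI, against 13.42 and 13.38 with DMSO, in IkL/L cells, and at 12.79 and 12.72 with GSI, against 13.29 and 13.30 with DMSO, in WT cells. The GSI and DMSO arrays of Mcm7 did not overlap in either genotype although its change was small, at -0.50 ± 0.06 (SE; adjusted p = 0.000689). Mcm2 (-1.19 ± 0.10), Mcm4 (-1.05 ± 0.15), Mcm5 (-1.15 ± 0.14) and Mcm6 (-1.24 ± 0.11) lay between the Mcm3 and Mcm7 changes.

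The factors that turn the loaded MCM ring into a working helicase had a median change of -1.72, and all 7 passed. Gins1, a GINS subunit, was at 8.94 and 8.70 with GSI, against 10.93 and 10.90 with DMSO, in IkL/L cells, and at 8.88 and 8.83 with GSI, against 10.54 and 10.47 with DMSO, in WT cells. Its change was -1.87 ± 0.11 (SE; adjusted p = 0.000152), a 3.67-fold fall. Gins4, another subunit of the same 4-protein complex, was at 8.48 and 8.51 with GSI, against 9.48 and 9.18 with DMSO, in IkL/L cells, and at 8.94 and 8.22 with GSI, against 9.36 and 9.22 with DMSO, in WT cells. The WT GSI array numbered 1 lay nearer to the WT DMSO arrays than the array numbered 2 did, and the change was -0.78 ± 0.18 (SE; adjusted p = 0.0157). Gins2 (-1.72 ± 0.13) and Gins3 (-1.30 ± 0.20) fell as well. Cdc45, the third part of the CMG helicase, changed by -1.81 ± 0.16, Mcm10, which is needed to activate it, by -1.78 ± 0.13, and Wdhd1, the scaffold that ties CMG to polymerase alpha, by -1.46 ± 0.20.

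Of the 8 polymerase and primase genes, 7 fell and 1 rose. Pola1, the catalytic subunit of polymerase alpha, which extends primers, was at 8.86 and 7.87 with GSI, against 10.62 and 9.89 with DMSO, in IkL/L cells, and at 8.73 and 7.86 with GSI, against 10.41 and 9.79 with DMSO, in WT cells. The array numbered 2 was the lower in each of the 4 groups, and the change was -1.85 ± 0.31 (SE; adjusted p = 0.00364). Prim2, the large primase subunit, went the other way and was at 10.98 and 11.22 with GSI, against 10.35 and 10.51 with DMSO, in IkL/L cells, and at 10.72 and 10.52 with GSI, against 10.58 and 10.44 with DMSO, in WT cells. The GSI arrays of Prim2 were above the DMSO arrays in IkL/L cells, while in WT cells they overlapped. Its average change was 0.39 ± 0.11 (SE; adjusted p = 0.0369), and no other gene of the 50 rose. Prim2 did not pass when any single array other than the WT GSI array numbered 2 was left out. Prim1, the catalytic primase subunit and partner of Prim2, fell at -1.19 ± 0.14 (SE; adjusted p = 0.000728). Pola2, the second subunit of polymerase alpha, changed by -0.92 ± 0.14. The polymerase delta genes Pold1 (catalytic, -0.73 ± 0.09) and Pold2 (-1.78 ± 0.20) and the polymerase epsilon genes Pole (catalytic, -1.35 ± 0.21) and Pole2 (-1.58 ± 0.13) fell.

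Of the 6 genes of the sliding clamp and its loader, 5 fell. Rfc3, a loader subunit, was at 7.22 and 7.35 with GSI, against 9.14 and 8.62 with DMSO, in IkL/L cells, and at 7.63 and 7.12 with GSI, against 8.73 and 8.56 with DMSO, in WT cells. It changed by -1.43 ± 0.18 (SE; adjusted p = 0.001). Rfc2, another small loader subunit, was at 9.57 and 9.74 with GSI, against 10.38 and 10.17 with DMSO, in IkL/L cells, and at 9.96 and 9.36 with GSI, against 10.29 and 9.92 with DMSO, in WT cells. The WT GSI array numbered 1 lay above a WT DMSO array, and Rfc2 did not pass, with a change of -0.53 ± 0.17 (SE; adjusted p = 0.0524). The call depended on the fit. With the replicate number as a block the limma adjusted p of Rfc2 was 0.0215, and over 18 alternatives it ran from 0.00198, with the stromal mean as a covariate, to 0.928, with the GAPDH difference as a covariate, and was below 0.05 in 8 of them, among them the fit without the WT GSI array numbered 1. Rfc4 (-1.34 ± 0.12), Rfc5 (-1.11 ± 0.12) and the large subunit Rfc1 (-0.70 ± 0.11) fell, as did Pcna, the clamp itself (-1.31 ± 0.15).

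RPA, the trimer that coats single-stranded DNA, fell at each of its 3 subunits, with a median of -0.76. Rpa2 was at 9.77 and 9.54 with GSI, against 10.97 and 10.64 with DMSO, in IkL/L cells, and at 9.83 and 9.46 with GSI, against 10.82 and 10.43 with DMSO, in WT cells, and its change was -1.07 ± 0.15 (SE; adjusted p = 0.00195). Rpa3 was at 9.51 and 9.54 with GSI, against 10.32 and 10.14 with DMSO, in IkL/L cells, and at 9.53 and 9.48 with GSI, against 10.18 and 10.14 with DMSO, in WT cells, and its change was -0.68 ± 0.11 (SE; adjusted p = 0.00306). Rpa1, the subunit with most of the DNA-binding surface, changed by -0.76 ± 0.07. None of the 3 had overlapping arrays in either genotype.

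Of the enzymes that finish Okazaki fragments, the ligase Lig1 was at 10.34 and 10.04 with GSI, against 11.60 and 11.72 with DMSO, in IkL/L cells, and at 9.82 and 9.85 with GSI, against 11.12 and 11.21 with DMSO, in WT cells, with a change of -1.40 ± 0.11 (SE; adjusted p = 0.000213). The flap nuclease Fen1 was at 11.54 and 11.39 with GSI, against 12.84 and 12.51 with DMSO, in IkL/L cells, and at 11.81 and 11.71 with GSI, against 12.57 and 12.49 with DMSO, in WT cells, with a change of -0.99 ± 0.10 (SE; adjusted p = 0.000426). Both fell, and the groups did not overlap.

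The regulators of S phase entry held both the furthest change and the widest spread. Ccne2, one of the E-type cyclins that activate Cdk2, was at 8.32 and 7.07 with GSI, against 10.05 and 10.25 with DMSO, in IkL/L cells, and at 6.97 and 9.20 with GSI, against 9.38 and 11.00 with DMSO, in WT cells. In WT cells the GSI array numbered 2 was close to the DMSO array numbered 1, while each GSI array stayed below both DMSO arrays. The change was -2.28 ± 0.54 (SE; adjusted p = 0.0179), with the largest SE of the 50 genes. E2f2, an activator E2F, was at 9.28 and 8.93 with GSI, against 10.15 and 10.21 with DMSO, in IkL/L cells, and at 9.80 and 9.81 with GSI, against 9.89 and 10.18 with DMSO, in WT cells. Its change was -0.65 ± 0.13 (SE; adjusted p = 0.0084), and the GSI and DMSO arrays did not overlap in either genotype. The activators E2f1 (-1.12 ± 0.15) and E2f3 (-1.45 ± 0.22) and the other E-type cyclin, Ccne1 (-1.74 ± 0.37), fell too.

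Chaf1b, a subunit of the CAF-1 histone chaperone that packages new DNA, was at 8.53 and 8.28 with GSI, against 10.15 and 9.80 with DMSO, in IkL/L cells, and at 8.88 and 8.82 with GSI, against 9.99 and 9.78 with DMSO, in WT cells. It changed by -1.30 ± 0.14 (SE; adjusted p = 0.000589). Uhrf1, which brings the maintenance DNA methyltransferase to new DNA, was at 10.68 and 9.90 with GSI, against 11.57 and 11.70 with DMSO, in IkL/L cells, and at 10.60 and 10.56 with GSI, against 11.57 and 11.84 with DMSO, in WT cells. It changed by -1.23 ± 0.17 (SE; adjusted p = 0.00163), and the IkL/L GSI replicates lay further apart than those of the other groups.

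Fork protection and the S phase checkpoint fell at all 4 genes. Chek1, the checkpoint kinase, was at 9.35 and 9.05 with GSI, against 11.02 and 10.96 with DMSO, in IkL/L cells, and at 8.71 and 9.22 with GSI, against 10.67 and 10.65 with DMSO, in WT cells. Its change was -1.74 ± 0.15 (SE; adjusted p = 0.000288). Timeless, part of the fork protection complex, was at 9.73 and 9.39 with GSI, against 10.58 and 10.82 with DMSO, in IkL/L cells, and at 9.01 and 9.13 with GSI, against 9.91 and 10.12 with DMSO, in WT cells. Its change was -1.04 ± 0.13 (SE; adjusted p = 0.00119), with both IkL/L DMSO arrays above both WT DMSO arrays. Tipin, the partner of Timeless, changed by -1.72 ± 0.13 and Clspn, the adaptor that brings Chek1 to its activating kinase, by -1.27 ± 0.21.

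The changes of the subunits of a complex were of different size. Orc3 (-0.33 ± 0.12), Orc4 (-0.28 ± 0.14) and Orc5 (-0.08 ± 0.14), the remaining subunits of the origin recognition complex, did not pass, while Orc1, Orc2 and Orc6 fell. In polymerase delta Pold3 fell (-0.80 ± 0.12) and Pold4 did not pass (0.48 ± 0.28), and in polymerase epsilon both Pole3 (-0.64 ± 0.17) and Pole4 (-1.15 ± 0.12) fell. These 7 genes are outside the 50 and are named as the other subunits of these complexes, outside the rule for named genes. Differences between subunits were not tested, and they rest on different probe sets.

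**Figure D2:**
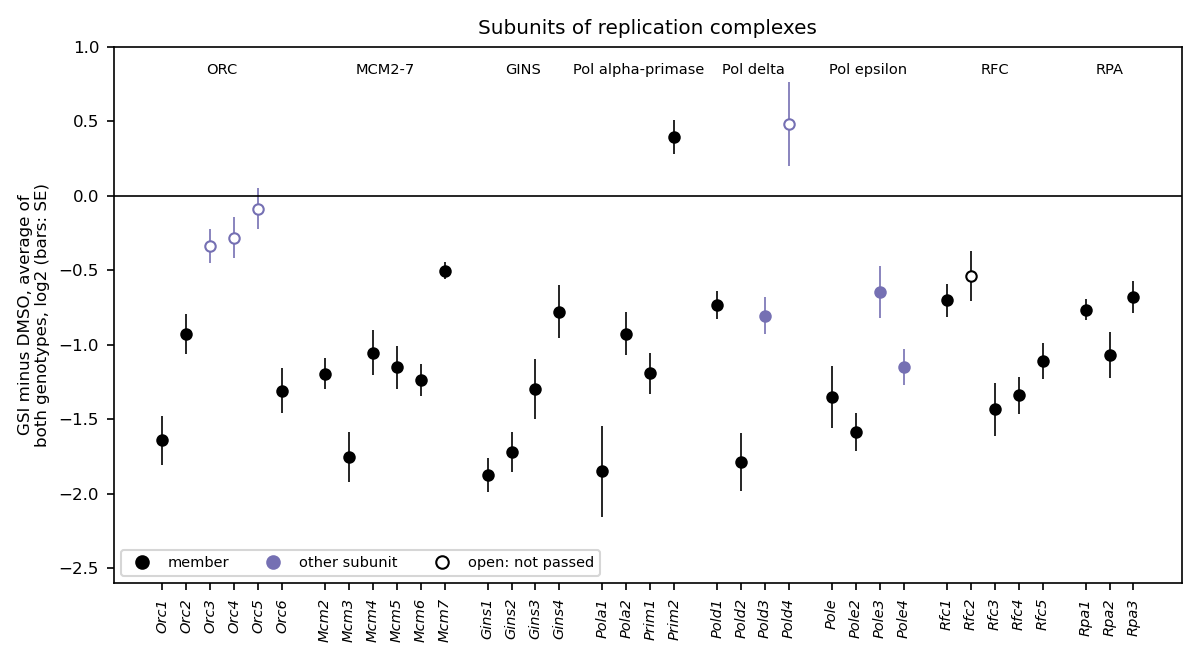
Average GSI minus DMSO change (log2, vertical axis, with SE bars) of each subunit of 8 replication complexes, with the 50 genes in black and the other subunits in purple; open points did not pass. Orc3, Orc4, Orc5 and Pold4 lie nearest to or above 0, Prim2 is above 0, and Mcm7 is the MCM subunit nearest to 0.

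The size of a change differed between probe sets of the same gene. The 50 genes have 106 probe sets, 12 genes have 1 and 38 have several. In 37 of the 38 all probe sets changed with the same sign in the average of both genotypes. The exception was Pola2, which has a probe set at 0.14 with a mean level below that of the median gene. Signs could differ within a genotype. In WT cells E2f2 was at -0.23 on the probe set used and at 0.11 on its other one. Prim2 was at 0.11 there on the one used and at -0.07 and -0.23 on the others. In IkL/L cells E2f2 was at -1.07 and -0.68, and Prim2 at 0.67, 0.51 and 0.25. Of the 56 probe sets not used, 53 were negative. Among the 36 of them above the median gene level (6.28), 35 were negative, 28 were more negative than the probe set used for the same gene, and their median was -1.24. The 20 at or below that level had a median of -0.44. Mcm7 was at -0.50 on the brightest probe set and at -0.73, -1.20 and -1.56 on the others. Mcm5 was at -1.15 on the one used and at -2.28 and -1.24 on the others, and Fen1 was at -0.99 and -1.93. The furthest and nearest changes named in each role group therefore hold for the probe sets used. Chek1 ran from -0.24 on its dimmest probe set to -2.39 against -1.74 on the one used. Prim2 was at 0.39, 0.22 and 0.01 on its 3 probe sets. Orc1 changed by -1.64 on the probe set used and by -0.35 on its other probe set, which lay above the median gene level. On that other probe set Orc1 changed by -0.07 in WT cells and by -0.63 in IkL/L cells. Cdc45 changed by -1.81 on the probe set used and by -0.20 on its other one, also above the median gene level.

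**Figure D3:**
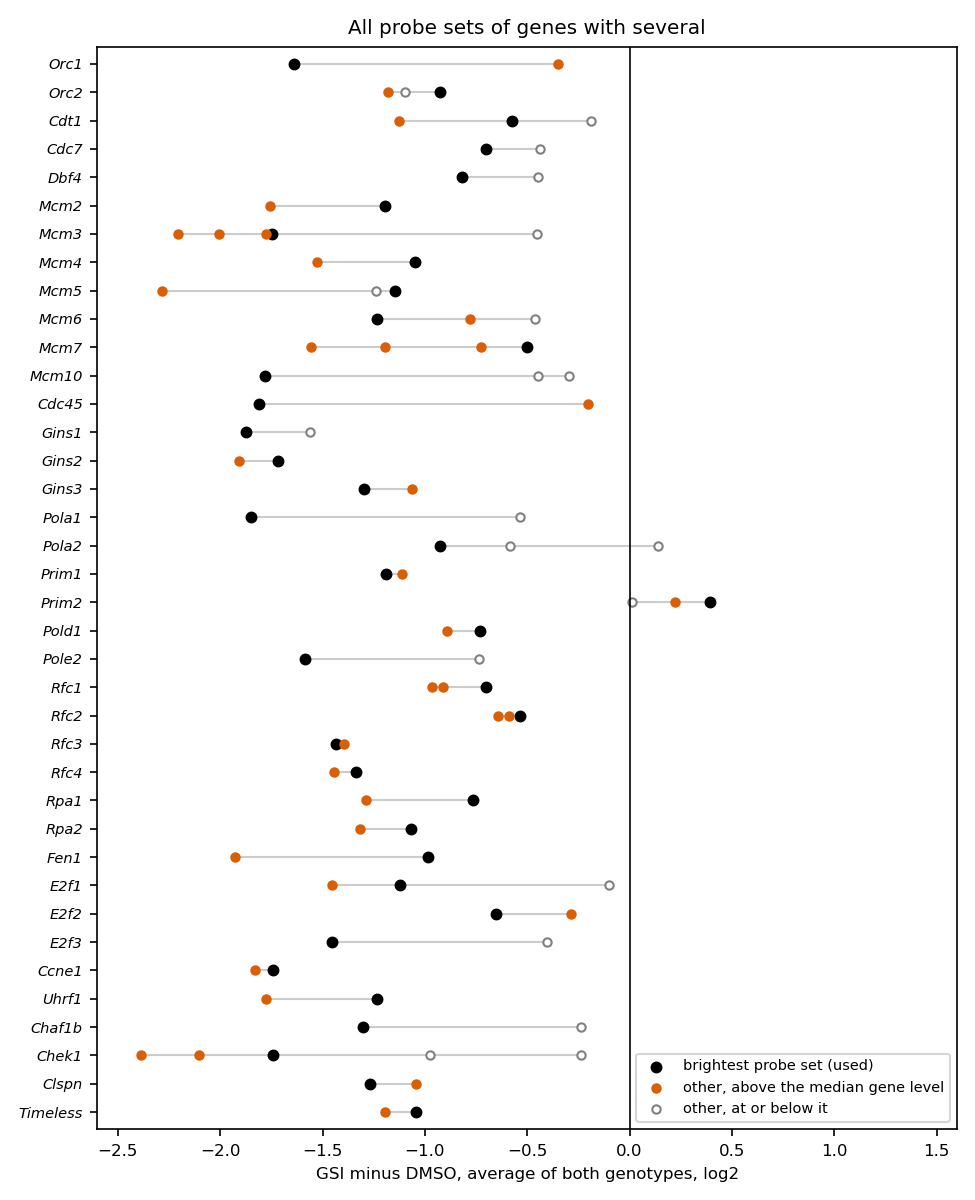
Average GSI minus DMSO change (log2, horizontal axis) of every probe set of the 38 genes that have several; black is the probe set used, orange others above the median gene level, and open grey others at or below it. Orange points lie mostly left of the black point of their row, and open points mostly right of it.

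Replication genes fell with GSI in both genotypes. In IkL/L cells 44 of the 50 fell, where 9.09% of all genes fell, and 1 rose, where 7.7% of all genes rose. In WT cells 37 of the 50 fell, where 4.16% of all genes fell, and 0 rose, where 2.31% of all genes rose (limma, adjusted p below 0.05, and 0 rose at an unadjusted p under 0.05, where 9.87% of all genes did). Fitted over genes above the median level alone, 47 fell and 1 rose in IkL/L cells, where 18.8% and 15.8% of those genes did. In WT cells 43 fell and 0 rose in that fit, where 10.4% and 5.75% did. Both GSI arrays lay below both DMSO arrays for 49 of the 50 genes in IkL/L cells, as held for 35.9% of all genes, and above for 1, as held for 26.5%. In WT cells they lay below for 48, as held for 19.8%, and above for 0, as held for 24.2%. The median change was -1.41 in IkL/L cells and -1.13 in WT cells. The genes that did not pass in IkL/L cells were Cdt1, Cdc7, Gins4, Rfc2 and Ccne2. In WT cells Cdt1, Cdc7, Gins3, Gins4, Prim2, Pole, Rfc1, Rfc2, E2f1, E2f2, Ccne1, Ccne2 and Clspn did not pass. The WT count rests on the spread shared by all 8 arrays: fitted on the 4 WT arrays alone it was 0, where 0.0055% of all genes fell. Every WT call was lost in at least 1 fit without a single array, as were many of the IkL/L calls. Such a fit leaves 1 array in a group, and the fits that lost most calls also called fewer of all genes. The median change of the 50 in these fits lay between -1.13 and -1.03 in WT cells. In IkL/L cells it lay between -1.52 and -1.26.

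**Figure D4:**
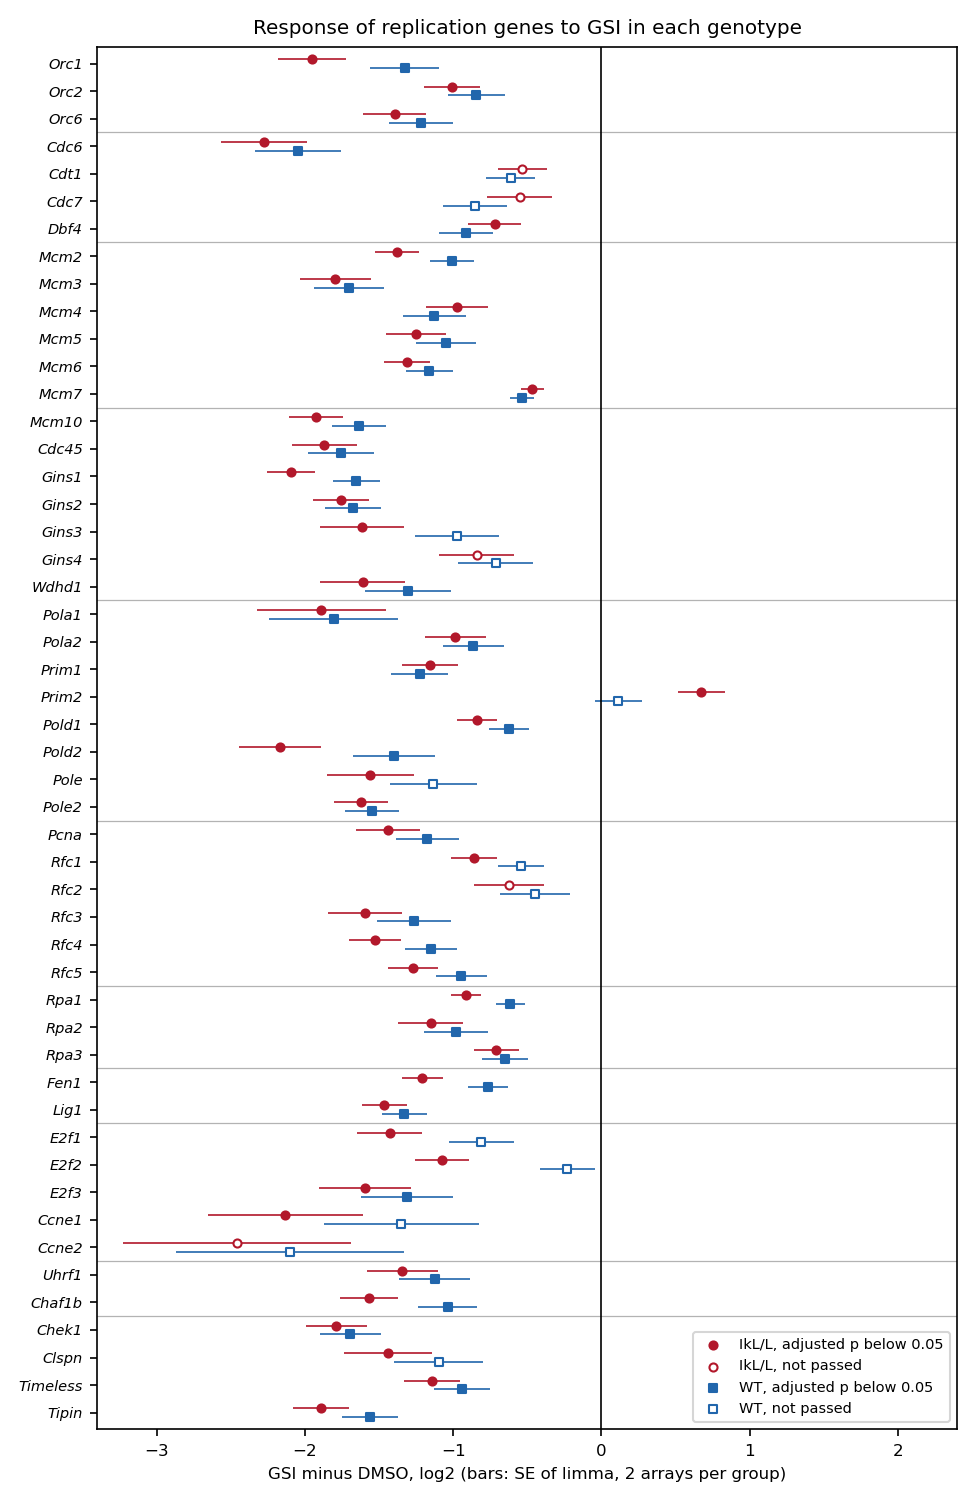
GSI minus DMSO change of each of the 50 genes (log2, horizontal axis, bars are SE) in IkL/L cells (red circles) and WT cells (blue squares); filled points have an adjusted p below 0.05. All genes but Prim2 are left of 0 in both genotypes, and for 43 of 50 the IkL/L point is further left.

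Across the 50 genes the change in IkL/L cells and the change in WT cells had a Pearson r of 0.884 and a Spearman rho of 0.897, against 0.841 and 0.724 over all genes. The genes are not independent, and both changes were read on the same probe sets. For 43 of the 50 the IkL/L change was the more negative, as it was for 59.4% of all genes, with a median difference of -0.22 for the 50 and -0.06 for all genes. That median rested on the IkL/L GSI arrays: without the one numbered 2 it was -0.07 for the 50 and -0.09 for all genes, and without the one numbered 1 it was -0.35 and -0.04. No gene of the 50 passed the test of the difference between responses (limma, adjusted p below 0.05), where 0.0165% of all genes were more negative and 0.0275% more positive in IkL/L cells, and at an unadjusted p under 0.05, 2 were more negative and 1 more positive, where 3.1% and 2.89% of all genes were. E2f2 had the smallest p, with a change of -1.07 ± 0.18 in IkL/L cells and -0.23 ± 0.18 in WT cells and a difference of -0.85 ± 0.26 (SE; adjusted p = 0.672). Prim2 changed by 0.67 ± 0.16 (SE; adjusted p = 0.0233) in IkL/L cells, where it rose, and by 0.11 ± 0.16 in WT cells, and the difference was 0.56 ± 0.23 (SE; adjusted p = 0.812). Fen1 changed by -1.21 ± 0.14 in IkL/L cells and -0.77 ± 0.14 in WT cells, with a difference of -0.44 ± 0.19 (SE; adjusted p = 0.83).

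Between genotypes no replication gene passed. Under DMSO, IkL/L minus WT had a median of 0.19 over the 50 genes and 0.03 over all genes, with 44 genes higher in IkL/L cells, where 56.7% of all genes were higher. None passed at an adjusted p below 0.05 (limma), where 0.709% of all genes were higher and 1.03% lower, and 10 were higher and 0 lower at an unadjusted p under 0.05, where 4.72% and 5.47% of all genes were. For 25 genes both IkL/L arrays lay above both WT arrays, as held for 22.4% of all genes, and for 0 they lay below, as held for 17.4%. Timeless had the smallest p, at 0.69 ± 0.19 (SE; adjusted p = 0.171), with IkL/L DMSO arrays at 10.58 and 10.82 and WT DMSO arrays at 9.91 and 10.12. Pold1 followed at 0.47 ± 0.13 (SE; adjusted p = 0.187), with IkL/L DMSO arrays at 11.90 and 11.75 and WT DMSO arrays at 11.41 and 11.31. Mcm10 came next, with IkL/L DMSO arrays at 10.35 and 10.31, WT DMSO arrays at 9.75 and 9.64 and a difference of 0.64 ± 0.18 (SE; adjusted p = 0.193). None of these 3 passed, while with the GAPDH difference as a covariate Pold1 and Pold2 passed, and with the stromal mean as a covariate Timeless did.

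Under GSI the median of IkL/L minus WT was -0.00 over the 50 genes and -0.04 over all genes. The median of the 50 was 0.12 without the IkL/L GSI array numbered 2 and -0.10 without the one numbered 1, so it had no settled sign. None passed (limma), where 0.945% of all genes were higher and 0.517% lower, and 5 were higher and 2 lower at an unadjusted p under 0.05, where 5.06% and 5.64% of all genes were. Both IkL/L GSI arrays lay below both WT GSI arrays for 6 genes (Orc1, Rfc5, Rpa1, Fen1, E2f2 and Chaf1b), as held for 23.1% of all genes. They lay above for 10 (Cdt1, Dbf4, Mcm7, Mcm10, Gins2, Prim2, Pold1, Pole2, Lig1 and Timeless), as held for 14.0%. E2f2 was at 9.28 and 8.93 on the IkL/L GSI arrays and at 9.80 and 9.81 on the WT GSI arrays, a difference of -0.70 ± 0.18 (SE; adjusted p = 0.158). Dbf4 differed by 0.60 ± 0.18 (SE; adjusted p = 0.23) and Prim2 by 0.48 ± 0.16 (SE; adjusted p = 0.286). With the GAPDH difference as a covariate Ccne1 and E2f2 passed, both lower in IkL/L cells. The DMSO and GSI comparisons of the genotypes share no arrays.

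Replicates were furthest apart for the E-type cyclins. The median absolute difference between the 2 arrays over the 50 genes was 0.250 for IkL/L GSI, 0.156 for IkL/L DMSO, 0.300 for WT GSI and 0.208 for WT DMSO, against 0.157, 0.144, 0.220 and 0.194 over all genes. In IkL/L GSI the array numbered 2 was the lower for 39 of the 50. Ccne2 had the largest gap in 3 of the 4 groups, at 2.23 in WT GSI, 1.62 in WT DMSO and 1.25 in IkL/L GSI, and Pola1 had it in IkL/L DMSO, at 0.72. Over the 50 genes, the difference between the arrays numbered 2 and 1 had a Pearson r of -0.370 between IkL/L GSI and IkL/L DMSO and of 0.845 between WT GSI and WT DMSO, against -0.010 and 0.710 over all genes. Across genotypes IkL/L DMSO had an r of 0.512 with WT GSI and of 0.660 with WT DMSO, against 0.562 and 0.579 over all genes. IkL/L GSI had an r of -0.457 with WT GSI and of -0.623 with WT DMSO, against 0.025 and -0.113 over all genes. The array differences of IkL/L DMSO, WT GSI and WT DMSO thus ran together, and those of IkL/L GSI did not run with them. The mean of the stromal markers was higher on the array numbered 1 in all 4 groups. These correlations describe the arrays and carry no test. Ccne1 and Ccne2 on the WT arrays numbered 2 were above those numbered 1 under both treatments.

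**Figure D5:**
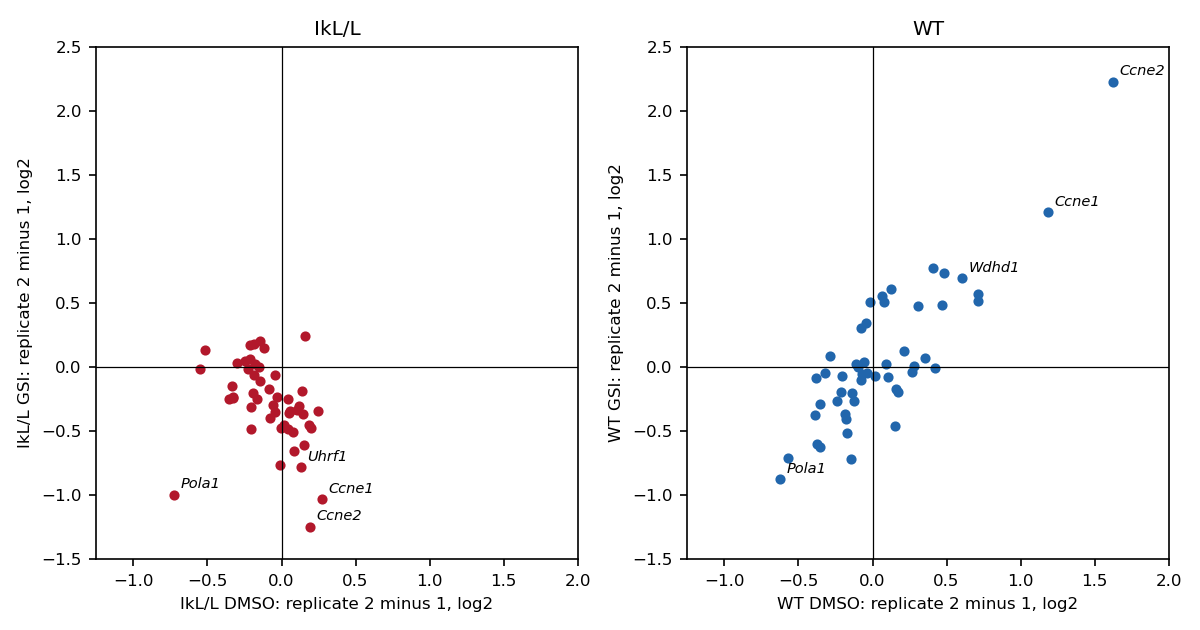
Difference between the arrays numbered 2 and 1 (log2) of each of the 50 genes in the GSI group (vertical axis) and in the DMSO group (horizontal axis), for IkL/L (left) and WT (right). WT points run along a rising diagonal up to Ccne2, and IkL/L points lie mostly below 0 on the vertical axis.

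Other genes of the replication pathway were also lower. Of 38 measured among 40 further replication factors, 26 fell, 0 rose and 12 did not pass, with a median of -0.68. Of all genes 12.5% fell and 10.8% rose. Dscc1, part of the alternative clamp loader, fell furthest, at -1.83 ± 0.18 (SE; adjusted p = 0.000427), and Rad1, part of the checkpoint clamp, next, at -1.54 ± 0.19 (SE; adjusted p = 0.00101). Of 21 genes of the E2F and RB network, 8 fell, 1 rose and 12 did not pass, with a median of -0.61, beside the same shares of all genes. Tfdp1, the DNA-binding partner of E2F proteins, fell at -1.45 ± 0.16 (SE; adjusted p = 0.000727) and the repressor E2f8 at -1.32 ± 0.21 (SE; adjusted p = 0.00324). Cdkn1a, which encodes the cyclin-dependent kinase inhibitor p21, rose, at 2.27 ± 0.10 (SE; adjusted p = 7.16e-05). Cdkn1a was at 11.42 and 11.58 with GSI, against 8.64 and 8.56 with DMSO, in IkL/L cells, and at 11.26 and 11.17 with GSI, against 9.54 and 9.62 with DMSO, in WT cells, with no overlap in either genotype.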

How the data were processed

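Total RNA of DN3 cells was amplified over 2 labelling cycles and hybridised to 8 Affymetrix arrays, 2 in each of 4 groups, which were taken from the sample titles. RNA amounts in the labels go by experiment code, with no code given per sample, so no batch could be tested. The deposited values are log2 values that the authors made with RMA, per the submitters' processing notes. RMA corrects background, makes the array distributions alike and summarises the probes of a set, which compresses differences at low signal. The RMA version is not given in the sources used here, and the values were used as deposited.

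Of 45101 probe sets, 64 controls, 932 that name several genes and 9160 without a listed gene were left out, and the brightest of the remaining 34945 was kept for each of 18193 genes. Symbols come from the platform annotation, which can be old. A model with 4 group terms was fitted over all genes with limma 3.58.1 in R 4.3.3 (empirical Bayes with a mean-variance trend, 4 residual and 4.11 prior degrees of freedom), and p-values were adjusted by the Benjamini-Hochberg method over all genes. Calls are two-sided at an adjusted p below 0.05. The method was tested on simulated data with noise drawn independently for each gene and array. Array differences shared between groups, as seen here, were not simulated, so the test does not cover them. The number of arrays limits the precision. Figures and counts were made with Python 3.11.15.

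Each of the 50 genes is named with its average change, and values per array are given for the furthest and nearest change in each of 11 role groups and for a gene called against its group. In the genotype and difference tests the 3 smallest p are named, and from each other list the 2 called genes with the largest change in each direction. The genes and lists were chosen with earlier results of these data known. Alternatives covered the probe set rule, dim genes, scaling, the variance trend, the arrays fitted, the replicate number, and the GAPDH and stromal levels as covariates.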

Additional observations from a re-analysis of the deposited data

How the results depend on the processing

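The average count of 48 lower genes stayed between 45 and 49 without single arrays and under every other setting at the same threshold, and 45 of the 49 called genes were called again without each array in turn, the exceptions being Cdc7, Gins4, Prim2 and Ccne2. The average count of higher genes, 1 (Prim2), was 0 with the mean over probe sets, over all probe sets, without both WT arrays numbered 1, with the GAPDH covariate and at 2-fold, and ranged from 0 to 1 without single arrays. The WT count of 37 lower genes was 19 over all probe sets, 0 with only the arrays compared, 15 without both WT arrays numbered 1, and 0 to 32 without single arrays. The IkL/L count of 44 lower genes was 23 to 48 without single arrays, and its count of higher genes was 0 with the mean over probe sets and at 2-fold, and 0 to 1 without single arrays. Between genotypes 2 genes passed under DMSO with the GAPDH covariate (Pold1 at 0.49 and Pold2 at 0.85), 1 with the stromal covariate (Timeless at 0.71), and 2 under GSI with the GAPDH covariate (Ccne1 at -1.68 and E2f2 at -0.76). Among the GSI changes of single genes, signs turned for Prim2 in WT cells with the mean over probe sets (-0.060) and for Rfc2 in WT cells with the GAPDH covariate (0.0028), neither of which was called. The median of IkL/L minus WT under GSI, -0.00, was 0.0023 with the mean over probe sets, 0.07 with the GAPDH covariate and between -0.10 and 0.12 without single arrays. The causes were not tested, beyond the fewer arrays of some fits. The replicate numbers were not taken to pair samples, since the labels do not say that they do and the array differences over all genes correlated above 0.1 in only 3 of 6 pairs of groups (0.562 to 0.710 among IkL/L DMSO, WT GSI and WT DMSO), while the 3 pairs with IkL/L GSI lay between -0.113 and 0.025. With the number as a replicate block Rfc2 also passed. The counts were then 49 lower and 1 higher in the average, where 14.5% and 13.4% of all genes were. In WT cells 42 were lower, where 6.51% of all genes were. In IkL/L cells 47 were lower and 1 higher, where 11.6% and 10.4% of all genes were. Between genotypes and for the difference in response 0 passed, where at most 1.79% of all genes were lower or higher. Second scalings moved the median of all genes by less than 0.1.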

Other observations

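Genes that supply nucleotides and chromatin parts to S phase cells moved with the fork genes. Of 12 measured, 10 fell with GSI in the average of both genotypes, where 12.5% of all genes did (limma, adjusted p below 0.05). None rose, where 10.8% of all genes did, and 2 did not pass (Dck and Tyms). The median change was -1.43. Dctpp1, which clears unwanted nucleotides, changed by -1.93 ± 0.13 (SE; adjusted p = 0.000192) and Dut, the enzyme that keeps uracil out of DNA, by -1.92 ± 0.13 (SE; adjusted p = 0.000192). DNA polymerases that work outside the fork in repair, damage bypass or receptor gene joining were mixed: of 15 measured, 5 fell, 2 rose and 8 did not pass, with a median of -0.15, where 12.5% of all genes fell and 10.8% rose. Poll, a repair polymerase, changed by -1.04 ± 0.13 (SE; adjusted p = 0.000955) and Rev1, a damage bypass polymerase, by -0.83 ± 0.19 (SE; adjusted p = 0.015). Primpol, a primase that restarts stalled forks, changed by 0.59 ± 0.17 (SE; adjusted p = 0.0422), and Dntt, the enzyme that adds bases at receptor gene joints, by 0.36 ± 0.05 (SE; adjusted p = 0.00156). The E2F motif was in 0 of 13 promoters of the polymerases outside the fork and in 2 of 13 promoters of the nucleotide and chromatin genes, where 2.26% of all promoters held it, and 13 promoters are too few to set the polymerases apart from that share. It was in 26.3% of the promoters of other replication factors and in 35.0% of those of the E2F and RB network.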
